A study of Homo sapiens with 10 samples.

Results

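PLK2, the gene of polo-like kinase 2, was followed across derivatives of HCT116, a long-used cell line from a human colorectal carcinoma that keeps wild-type p53. The gene was found through the platform's probe annotation, which gave the name PLK2 to 1 probe set (16996433) of the 53617 on each Affymetrix array, so it is 1 of 14884 named genes. PLK1, PLK3, PLK4 and PLK5, the 4 other polo-like kinase genes, were also named and are shown for comparison. PLK2 was selected on its differences from WT in the mutant lines on these same arrays. Its levels are therefore a description to which no test is attached.

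The lines were ORC1B14 and ORC1BP32, both labelled as ORC1 mutants, ORC2B2 and ORC2BP8, both labelled as ORC2 mutants, and WT, the HCT116 line set against them. Each of the 5 lines had 2 arrays titled as biological replicates, 10 arrays in all, from untreated cells kept at 37ºC in 5% CO2. Both mutated genes encode parts of the origin recognition complex, the assembly that marks where DNA replication starts. The labels say neither what kind of mutation a line carries nor whether a line is a single clone, and the annotation named 0 of the 6 ORC genes, so the mutated genes were not analysed here and did not serve to check the labels. The comparisons ask how PLK2 and the genes around it differ between each mutant line and WT.

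Polo-like kinases are serine/threonine kinases that recognise phosphorylated partners through a polo-box domain. PLK1 drives entry into and passage through mitosis and PLK4 starts centriole duplication, whereas PLK2, first described as a serum-inducible kinase, is made early after growth stimulation and acts from G1 phase on. PLK2 is known as a direct target gene of p53, as a kinase needed for timely centriole duplication, and in neurons as a kinase that weakens synapses after prolonged activity.

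The promoter of PLK2 is shown because its known inducers, p53 and growth signals, define 2 of the gene lists compared below. The stretch printed holds the 250 bases before the RefSeq start on the minus strand of chr5:58460087-58460336 (GRCh38.p14, chromosome 5, RefSeq promoter sequences), written 5′ to 3′ along the gene, with capitals marking the motif matches.
PLK2: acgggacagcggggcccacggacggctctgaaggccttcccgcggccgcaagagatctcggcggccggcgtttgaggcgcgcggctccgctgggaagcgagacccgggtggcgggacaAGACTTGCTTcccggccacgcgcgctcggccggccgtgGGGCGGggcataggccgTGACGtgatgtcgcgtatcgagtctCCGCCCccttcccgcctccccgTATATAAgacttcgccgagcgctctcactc
It is 71.2% G and C, against a median of 58% over the 35116 promoters in the table. Motifs were sought on both strands in the same window of each promoter. AGACTTGCTT, at positions -132 to -123 from the start, matches the p53 half-site consensus, which 5.57% of promoters hold. TATATAA lies at -30 to -24 and is held by 2.42% of promoters. The cyclic AMP response half-site TGACG, at -77 to -73, is held by 21.2% of promoters. The GC box GGGCGG is held by 42.6% of promoters and matched PLK2 at -94 to -89 and, on the opposite strand as CCGCCC, at -52 to -47. No matched motif overlaps another. TATAAA (10.7% of promoters), CCAAT (32%), CACGTG (6.34%) and the CArG box of serum response factor (1.16%) had no match in these letters. A match describes the sequence and does not show that a factor binds there.

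PLK2 lay above WT on all 8 mutant arrays. Its expression value, read as log2, was 9.23 and 9.24 in ORC1B14 (replicates 1 and 2). It was 8.05 and 8.02 in ORC1BP32. It was 9.61 and 8.93 in ORC2B2, and 9.97 and 9.04 in ORC2BP8, against 7.26 and 7.63 in WT. The lowest mutant array, an ORC1BP32 array at 8.02, therefore stood above the higher WT array. Across all genes tested, 7.96% had all 8 mutant arrays above both WT arrays, and since PLK2 was picked for its high values nothing is read from its being among them. On every array PLK2 stood well clear of the array median over all probe sets, by 3.30 in the lowest case (a WT array) and by 6.02 in the highest (an ORC2BP8 array). The RNA came from whole cultures, so more RNA per cell and more cells that express the gene cannot be told apart.

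**Figure D1:**
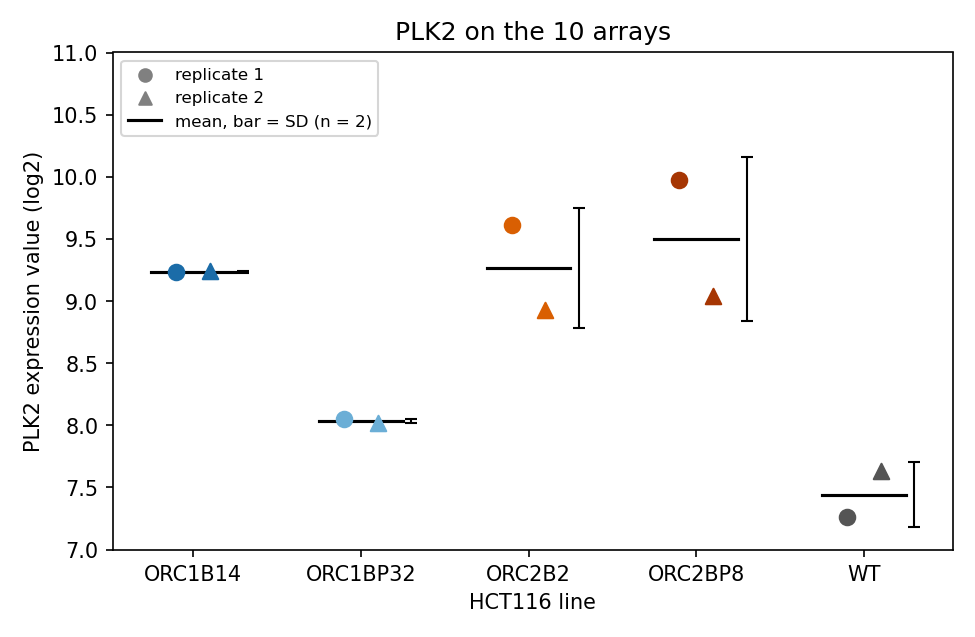
PLK2 expression value (log2) on each array, with the 4 mutant lines to the left of WT; circles are replicate 1, triangles replicate 2, the horizontal line is the line mean and the bar its SD (n = 2). All mutant arrays lie at 8.02 or above and both WT arrays at 7.63 or below, and the 2 ORC2 lines show the widest gaps between replicates.

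As line means, PLK2 was ordered ORC2BP8 (9.50 ± 0.66), ORC2B2 (9.27 ± 0.48), ORC1B14 (9.23 ± 0.0104), ORC1BP32 (8.03 ± 0.0176) and WT (7.44 ± 0.26) (SD, n = 2 each). The first 3 lines cannot be ordered by these data: ORC2BP8 exceeded ORC2B2 by 0.23 and ORC2B2 exceeded ORC1B14 by 0.03, both less than the SE of 0.30 for a difference between 2 lines, and their arrays overlapped. ORC1B14 lay 1.20 above ORC1BP32 and ORC1BP32 lay 0.59 above WT, and in both steps the arrays of the 2 lines did not overlap. How many genes show such a separation between 2 lines was not counted, so nothing is read from it. Relative to WT, PLK2 stood 1.79 higher in ORC1B14 (3.46-fold) and 0.59 higher in ORC1BP32 (1.51-fold). It stood 1.83 higher in ORC2B2 (3.55-fold) and 2.06 higher in ORC2BP8 (4.17-fold), and each of the 4 differences had an SE of 0.30. Both ORC1 lines carry a mutation in the same gene, yet the distance between them was larger than that between ORC1B14 and either ORC2 line. The mean of the ORC1 lines was 8.63 and that of the ORC2 lines 9.38, a difference (ORC1 minus ORC2) of -0.75 (SE 0.21), which was -1.15 among the replicate 1 arrays and -0.35 among the replicate 2 arrays. That SE reflects the spread between arrays of a line and leaves out the variation between lines with the same mutated gene.

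By size of the log2 difference among the 10797 genes tested, PLK2 had rank 7 of the higher genes in ORC2BP8, rank 11 in ORC2B2 and rank 13 in ORC1B14. Its rank in ORC1BP32 was 368. The ranks moved with the replicate: within replicate 1 and replicate 2 they were 5 and 35 in ORC2BP8, 10 and 32 in ORC2B2, 18 and 13 in ORC1B14 and 363 and 1148 in ORC1BP32. For the mean of the 4 mutant lines, 1.57 above WT (2.96-fold, SE 0.24), its rank was 6 (7 within replicate 1 and 18 within replicate 2), and 37 genes stood at least 1 log2 unit above WT. These ranks are part of what singled the gene out and are given as a description.

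The size of the PLK2 difference was not the same in the 2 replicates. Within replicate 1 ORC1B14 exceeded the WT array of the same number by 1.97, ORC1BP32 by 0.79, ORC2B2 by 2.35 and ORC2BP8 by 2.71. Within replicate 2 the same differences were 1.61, 0.39, 1.30 and 1.41. The sign was the same in both, and every mutant line was closer to WT in replicate 2. All differences of a replicate share the same WT array, which was higher in replicate 2, so they are not separate observations. The highest line also changed: ORC2BP8 led among the replicate 1 arrays and ORC1B14 among the replicate 2 arrays. Replicate 1 exceeded replicate 2 by 0.93 in ORC2BP8 and by 0.68 in ORC2B2. A gap of at least that size was found for 3.43% of genes tested in ORC2BP8 and for 5.93% in ORC2B2. The replicate gap of PLK2 was -0.01 in ORC1B14, 0.02 in ORC1BP32 and -0.37 in WT. Leaving out ORC2BP8 replicate 1 gave a difference of 1.59 in that line, and leaving out its replicate 2 gave 2.53.

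Among the other polo-like kinases none was called in any mutant line against WT, where a call is a Benjamini-Hochberg adjusted p under 0.05 from limma over all 10797 genes. As background, 0.583% of genes tested were called in ORC1B14, 0.0185% in ORC1BP32, 0.333% in ORC2B2, 0.935% in ORC2BP8 and 1.02% for the mean of the 4 mutant lines. At an unadjusted p under 0.05 these shares were 17% for ORC1B14, 10.1% for ORC1BP32, 11.7% for ORC2B2 and 14.6% for ORC2BP8.

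PLK1, the mitotic kinase, had values of 11.31 and 11.18 in ORC1B14, 11.03 and 11.04 in ORC1BP32, 11.05 and 10.94 in ORC2B2, and 10.80 and 11.36 in ORC2BP8, against 10.22 and 10.61 in WT. Like PLK2 it was above both WT arrays on all 8 mutant arrays, as were 7.96% of all genes tested, but its spread among the mutant lines was small. Its differences from WT were 0.83, 0.62, 0.58 and 0.67 in the order of lines just given (SE 0.20), with unadjusted limma p of 0.00144, 0.00969, 0.0139 and 0.00614 and limma adjusted p of 0.0908, 0.328, 0.268 and 0.146. For the mean of the 4 lines PLK1 stood at 0.67 above WT (1.59-fold, SE 0.16, limma adjusted p = 0.063). Left-out single arrays moved that difference from 0.48 (without WT replicate 1) to 0.87 (without WT replicate 2). Without ORC2BP8 replicate 1 it was 0.74.

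PLK3, a stress-responsive relative of PLK2, had values of 6.97 and 6.59 in ORC1B14, 6.98 and 6.73 in ORC1BP32, 6.27 and 6.35 in ORC2B2 and 6.47 and 6.63 in ORC2BP8, against 6.70 and 6.84 in WT. It lay below both WT arrays on 5 of the 8 mutant arrays, among them all 4 arrays of the ORC2 lines, and above both on 2. The share of all genes with such a pattern was not counted, so nothing is read from it. The PLK3 differences from WT were 0.01, 0.09, -0.46 and -0.22 (SE 0.20), with the lowest limma adjusted p at 0.411 in ORC2B2 (unadjusted p = 0.0445). Between the ORC1 and ORC2 lines PLK3 differed by 0.39, ORC1 lines higher (SE 0.14, limma adjusted p = 0.589).

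PLK4, the kinase that starts centriole duplication, ranged from 7.60 to 8.68 on the mutant arrays and from 7.86 to 8.17 on the WT arrays, so the groups overlapped. Its differences were 0.02, 0.25, 0.53 and 0.22 (SE 0.31), with a lowest limma adjusted p of 0.568. PLK5, a relative without kinase activity in humans, ranged from 4.20 to 4.61 on mutant arrays and from 4.19 to 4.34 on WT arrays, at most 0.66 above the array median. Its lowest limma adjusted p was 0.633, in ORC1B14. The mean differences over the 4 lines were 1.57 for PLK2, 0.67 for PLK1, 0.26 for PLK4, 0.10 for PLK5 and -0.14 for PLK3.

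**Figure D2:**
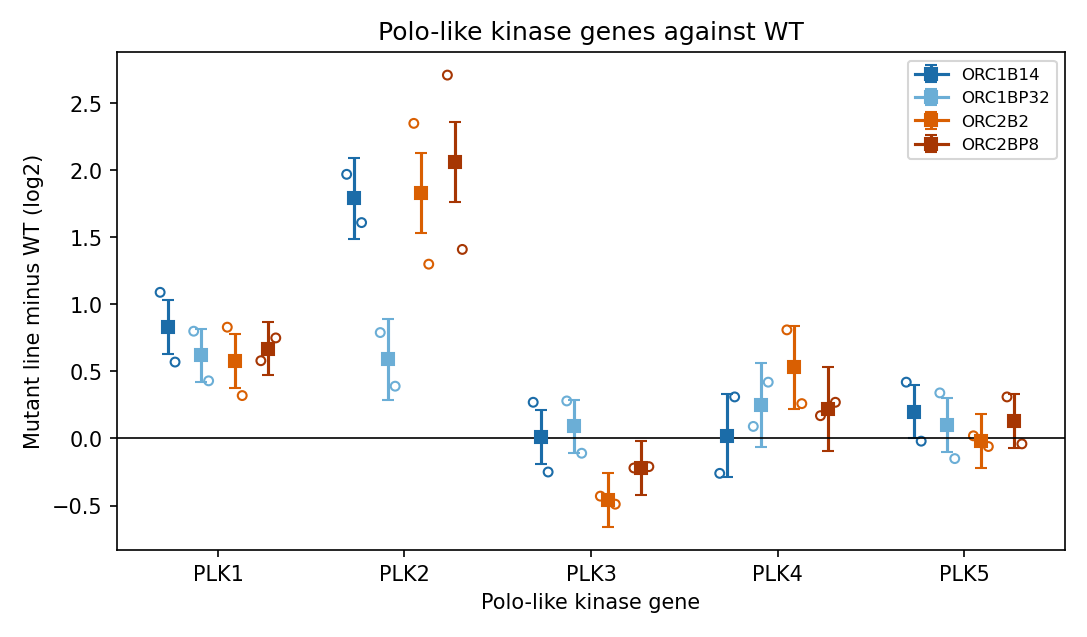
Difference from WT (log2) for each polo-like kinase gene in the 4 mutant lines; squares are line means with the SE of the fit across all genes, and open circles are the differences within replicate 1 (left) and replicate 2 (right). PLK2 reaches 2.06 in ORC2BP8 and 0.59 in ORC1BP32, while the line means of PLK3, PLK4 and PLK5 lie between -0.46 and 0.53; within single replicates they reach -0.49 (PLK3) and 0.81 (PLK4), both in ORC2B2.

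The genes around PLK2 on chromosome 5 lay at or below WT in ORC1B14, the line in which PLK2 itself stood 1.79 above WT. The 6 nearest tested genes on each side, in the order of the RefSeq gene table, were DHX29, MTREX, PLPP1, IL31RA, SETD9 and GPBP1 on one side and DEPDC1B, ELOVL7, SMIM15, KIF2A, DIMT1 and IPO11 on the other. In ORC1B14 their differences from WT ran from -1.43 to 0.00, with a median of -0.97, against a median of 0.04 over all genes tested. PLK2 stood 2.76 above the median of its neighbours. PLK2 was selected on its differences from WT, which favours such a distance, so nothing is read from it. The neighbours' median was -1.35 within replicate 1 and -0.60 within replicate 2.

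ELOVL7, a fatty acid elongase, fell by 1.43 (SE 0.23, to 6.24 in ORC1B14, against 7.67 in WT, limma adjusted p = 0.0347), and GPBP1, the nearest tested gene on its side, fell by 1.22 (SE 0.22, to 7.76 in ORC1B14, against 8.97 in WT, limma adjusted p = 0.0464). These 2 of 12 neighbours were called in ORC1B14 and 8 of 12 reached an unadjusted p under 0.05. Over all genes tested the shares in ORC1B14 were 0.583% and 17%. ELOVL7 lost its call without either WT array or without ORC1B14 replicate 1 (highest adjusted p 0.19). GPBP1 kept its call when ORC1B14 replicate 2 was left out and lost it when any of the other 9 arrays was (highest adjusted p 0.202). It also lost its call, at an unchanged difference of -1.22, under median centring (adjusted p = 0.0666), without the filter on dim probe sets (0.0573) and without the intensity trend (0.051), so its call lies at the threshold. Without ORC1B14 replicate 2, DHX29, MTREX, SMIM15 and IPO11 were called as well. MTREX, the helicase of the nuclear RNA exosome, stood at -1.10, the translation helicase DHX29 at -1.16, the ribosomal RNA methyltransferase DIMT1 at -1.09 and KIF2A, a microtubule-depolymerising kinesin, at -0.92, none of them called. SETD9 and IL31RA, at 0.00 and -0.29, had WT means of 4.19 and 3.95, close to the array medians.

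In the other 3 lines the medians of the same neighbours were 0.02 in ORC1BP32, 0.02 in ORC2B2 and 0.10 in ORC2BP8, with all values between -0.54 and 0.37 and 0 of 12 called by limma in each line (0, 1 and 0 at an unadjusted p under 0.05). Over all genes tested 0.0185%, 0.333% and 0.935% were called in these lines, so nothing is read from 0 called. The shares at an unadjusted p under 0.05 were 10.1%, 11.7% and 14.6%. PLK2 stood above these medians by 0.57 in ORC1BP32, 1.81 in ORC2B2 and 1.96 in ORC2BP8, distances that its selection likewise favours.

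**Figure D3:**
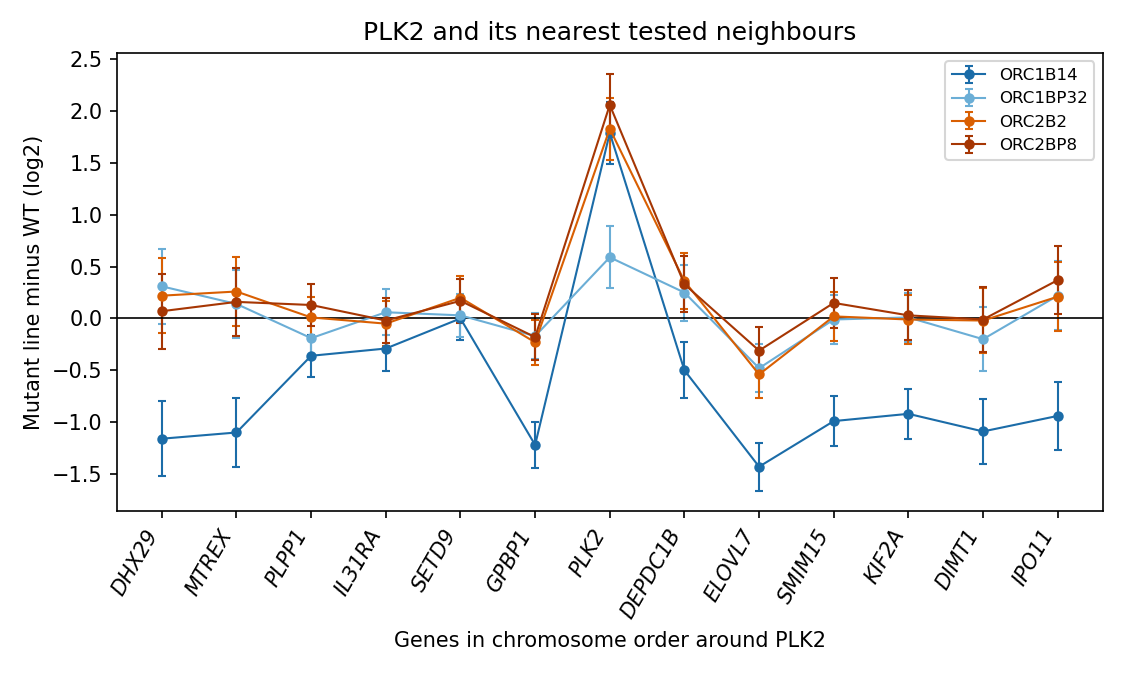
Difference from WT (log2, with the SE of the fit) for PLK2 and the 6 nearest tested genes on each side, in chromosome order with equal spacing, for the 4 mutant lines. The neighbours' median is -0.97 in ORC1B14 and between 0.02 and 0.10 in the other lines. PLK2 stands above its neighbours in each line, which its selection on these differences favours.

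Genes with a pattern like that of PLK2 were ranked by Pearson's r over the 10 arrays, among the 656 other genes whose line means spanned at least 1 log2 unit. The arrays behind each r are the same and include both WT arrays, at which PLK2 was lowest, so each r is a description and not a test, and it says nothing of shared control. SMAD6, an inhibitor of bone morphogenetic protein signalling inside the cell, was the gene most like PLK2 (r = 0.964) and the only one with r of at least 0.9. Its values were 6.37 and 6.39 in ORC1B14, 5.12 and 5.10 in ORC1BP32, 6.57 and 6.12 in ORC2B2 and 6.77 and 5.76 in ORC2BP8, against 4.97 and 5.05 in WT. As for PLK2, ORC1BP32 lay lowest among the mutant lines and replicate 1 exceeded replicate 2 in both ORC2 lines. Choosing SMAD6 by r over these same arrays favours both likenesses. For SMAD6, ORC1BP32 stood at 0.10 above WT. The other lines stood at 1.37 (ORC1B14), 1.33 (ORC2B2) and 1.25 (ORC2BP8).

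The next genes were SUSD2, a cell surface protein with a sushi domain (r = 0.875), SECTM1, a secreted and transmembrane protein (0.874), BMP4, a bone morphogenetic protein ligand (0.869), KRTAP2-3, a keratin-associated protein (0.869), HEG1, a mucin-like membrane protein (0.868), CRABP2, a carrier of retinoic acid (0.865), and MCAM, a cell adhesion molecule (0.823). CRABP2 stood at 1.13 for ORC1B14, 0.32 for ORC1BP32, 0.91 for ORC2B2 and 1.22 for ORC2BP8 relative to WT, with ORC2BP8 first and ORC1BP32 last as for PLK2. BMP4 stood at 0.92, 0.35, 0.53 and 1.14 in the same order of lines, and SUSD2 at 2.75, 1.05, 2.37 and 1.90. KRTAP2-3 had the widest range of the 8, at 1.96, 1.16, 3.24 and 3.63. In all 8 genes ORC1BP32 was the mutant line closest to WT, which their choice by likeness to PLK2 favours. Over all genes tested ORC1BP32 also had the smallest share called against WT (0.0185%). The share of all genes with ORC1BP32 closest to WT was not counted.

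NTSR1, a receptor of the peptide neurotensin, was the gene most opposite to PLK2 (r = -0.931). It had 8.90 and 8.79 in ORC1B14, 9.40 and 9.32 in ORC1BP32, 8.82 and 8.84 in ORC2B2 and 8.62 and 8.54 in ORC2BP8, against 9.69 and 9.62 in WT. Its 2 arrays lay close together in every line, the ORC2 lines included, where those of PLK2 lay apart. It was followed by MTHFD2L, a mitochondrial folate enzyme (-0.901), IRF2BP2, a transcriptional corepressor (-0.90), and NAB1, a corepressor of the early growth response factors (-0.891). Of the 656 genes, 10 had r of at least 0.8 and 25 had r of at most -0.8. Over the 5 line means in place of the 10 arrays, 5 of the 8 most like and 1 of the 4 most opposite genes were the same. After the mean of each replicate number was subtracted, 6 of the 8 and 1 of the 4 were the same.

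**Figure D4:**
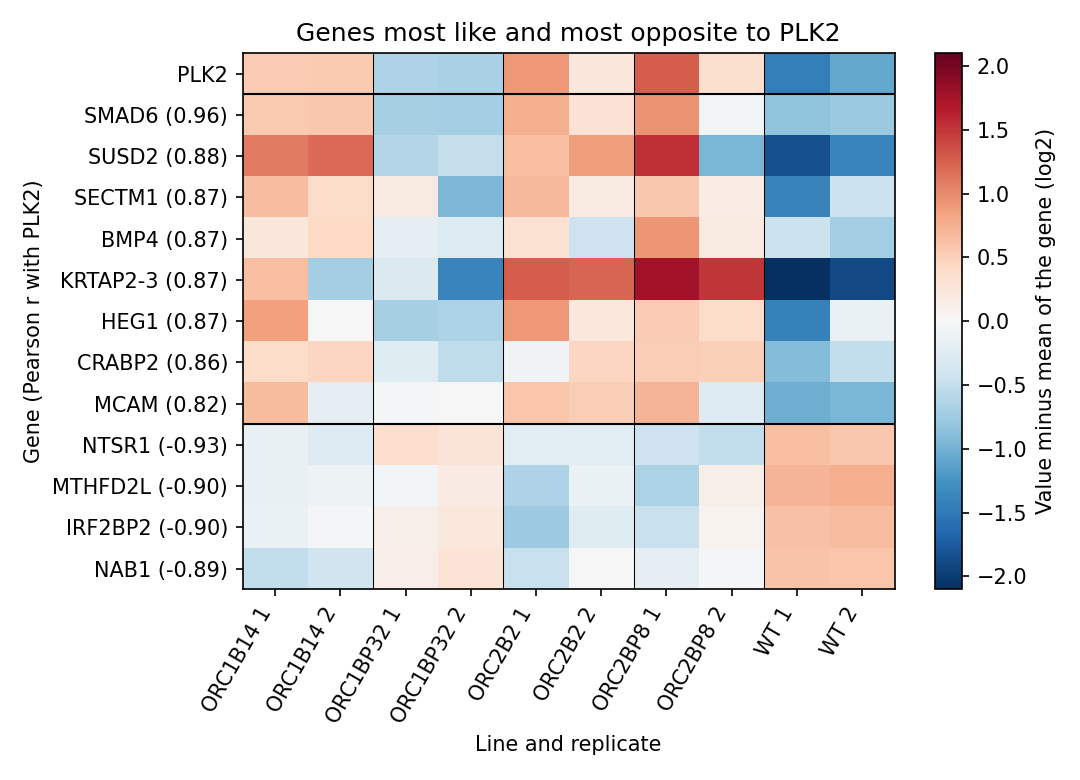
Values of PLK2, the 8 genes most like it and the 4 most opposite on the 10 arrays, each minus the mean of that gene (log2; red above, blue below), with lines and replicates as columns and Pearson's r over the 10 arrays beside each name. The ORC1BP32 and WT columns are low for PLK2 and SMAD6, and the WT columns are high for NTSR1.

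The known roles of PLK2 were followed in 5 lists of genes. Of 50 p53 targets, PLK2 left out, 30 were named and 27 tested. By limma 0 of 27 were called in any line. At an unadjusted p under 0.05 there were 4 of 27 in ORC1B14 and 5 of 27 in each of ORC1BP32, ORC2B2 and ORC2BP8, in both directions. Over all genes tested the shares at that p were 17%, 10.1%, 11.7% and 14.6% in the same order of lines, so nothing is read from these counts. The list medians were -0.02 for ORC1B14, 0.14 for ORC1BP32, -0.07 for ORC2B2 and -0.06 for ORC2BP8, against medians of 0.03 to 0.04 over all genes tested. CDKN1A and MDM2, among the most used p53 targets, were among the 20 not named and are not analysed here.

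BAX, the pore-forming death protein, was the highest p53 target on average, at 0.74 (SE 0.16, limma adjusted p = 0.0589), with 6.62 and 6.53 in ORC1B14, 6.24 and 6.28 in ORC1BP32, 6.47 and 6.27 in ORC2B2 and 6.25 and 6.74 in ORC2BP8, against 5.71 and 5.67 in WT. E2F7, a repressor of cell cycle genes, averaged 0.53 and TIGAR, a regulator of glycolysis, 0.40. GDF15, a stress cytokine, averaged -1.26 (SE 0.47, limma adjusted p = 0.203), with 8.64 and 7.74 in ORC1B14, 8.78 and 8.86 in ORC1BP32, 8.22 and 7.0 in ORC2B2 and 8.61 and 6.60 in ORC2BP8, against 8.87 and 9.75 in WT. SESN2, a sestrin that ATF4 also induces, averaged -0.89 (SE 0.20, limma adjusted p = 0.0596), and KITLG, the ligand of KIT, -0.54. BAX and GDF15, both p53 targets, thus lay on opposite sides of WT. Without ORC2BP8 replicate 1 GDF15 (-2.71) and TP53INP1 (-1.62) were called in ORC2BP8.

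The immediate early and serum response list holds other genes of rapid growth signalling. Of 60 genes 43 were named and 42 tested, and limma called 0 of 42 in any line (10, 1, 13 and 8 at an unadjusted p under 0.05 in ORC1B14, ORC1BP32, ORC2B2 and ORC2BP8). Over all genes tested 17%, 10.1%, 11.7% and 14.6% reached that p in these lines. At most 0.935% were called in a line, so nothing is read from 0 of 42. At the unadjusted p, 7 genes lay above WT and 3 below in ORC1B14, and 1 above and 0 below in ORC1BP32. In ORC2B2 2 lay above and 11 below, and in ORC2BP8 2 above and 6 below. The shares of all genes in each direction were not counted. The medians were 0.19, 0.15, -0.13 and -0.14 in the same order. FOSL2, an AP-1 subunit, was highest on average at 0.77 (limma adjusted p = 0.101), SGK1, a serum-induced kinase, stood at 0.58 and CSRNP1 at 0.46. EREG, an EGF receptor ligand, was lowest at -1.56 (SE 0.38, limma adjusted p = 0.0716). Its values were 9.31 and 9.62 in ORC1B14, 11.30 and 11.53 in ORC1BP32, 10.84 and 8.72 in ORC2B2 and 10.60 and 10.39 in ORC2BP8, against 11.91 and 11.79 in WT. As with PLK2, ORC1BP32 was the mutant line nearest to WT for EREG. ORC1BP32 also had the smallest share of all genes at an unadjusted p under 0.05, so nothing is read from that likeness. DUSP5 and SPRY4, feedback inhibitors of ERK signalling, averaged -0.98 and -0.67. EREG was called in ORC1B14 and ORC2BP8 without either ORC2B2 array, and in ORC2B2 also without its replicate 1. DUSP5 was called in ORC2B2 without ORC2B2 replicate 2, and DUSP4 in ORC2B2 and LIF in ORC2BP8 without ORC2BP8 replicate 1.

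Centriole duplication, which PLK2 is known to time, was followed in 40 genes, of which 31 were named and 30 tested. Limma called 0 of these 30 in any line (5, 0, 3 and 4 at an unadjusted p under 0.05 in the order of lines used above), and the medians were -0.11, 0.04, 0.10 and 0.07. Over all genes tested 17%, 10.1%, 11.7% and 14.6% reached that p and at most 0.935% were called, so nothing is read from these counts. TEDC2, a partner of the delta and epsilon tubulins, averaged 0.64, the satellite protein gene CEP131 0.51 and POC1A 0.38. OFD1, a protein of the centriole's distal end, averaged -0.66, CEP120, which lengthens centrioles, -0.59 and CEP44 -0.47. Without ORC2BP8 replicate 1 OFD1 was called in ORC2BP8 at -1.46. Of 9 genes for substrates and partners of PLK2, 5 were named and tested, with 0 of 5 called and 0 at an unadjusted p under 0.05 in each line. At the shares over all genes just given, nothing is read from 0 of 5. CIB1, a calcium-binding partner of polo-like kinases, averaged 0.26 and RASGRF1, a Ras exchange factor, 0.21. SIPA1L1, a synaptic Rap regulator that PLK2 marks for degradation in neurons, averaged 0.04, TSC1 0.01 and RAPGEF2, a Rap exchange factor, -0.33. Their mean differences were all within -0.33 to 0.26. CENPJ and NPM1, the centrosomal substrates of PLK2, were not named.

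Mitotic kinases and regulators, the list that holds PLK1, had medians of 0.39 for ORC1B14, 0.33 for ORC1BP32, 0.45 for ORC2B2 and 0.49 for ORC2BP8. Of 34 genes 31 were named and tested, and 30, 31, 30 and 28 of the 31 had differences above 0 in these lines, where 55%, 55.3%, 54% and 55% of all genes tested did. Limma called 0 of 31 in any line, and 13, 10, 18 and 16 lay above WT at an unadjusted p under 0.05 with 0 below. Over all genes tested 17%, 10.1%, 11.7% and 14.6% reached that p, in either direction. At most 0.935% were called in a line, so nothing is read from 0 of 31. BIRC5, the survivin subunit of the chromosomal passenger complex, averaged 0.76 (SE 0.17, limma adjusted p = 0.0589), with 9.09 and 9.01 in ORC1B14, 8.39 and 8.11 in ORC1BP32, 8.77 and 8.88 in ORC2B2 and 8.58 and 9.08 in ORC2BP8, against 7.82 and 8.14 in WT. MASTL, the Greatwall kinase, averaged 0.76 (limma adjusted p = 0.0601), with 0.62 for ORC1B14, 0.83 for ORC1BP32, 0.85 for ORC2B2 and 0.73 for ORC2BP8, so ORC1BP32 was not the line nearest to WT. ECT2, CDC25B and PTTG1 were the lowest, at 0.05, 0.06 and 0.11. BIRC5 was called in ORC1B14 without either ORC2BP8 array, and CDC20 in ORC2BP8 without ORC2BP8 replicate 1.

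**Figure D5:**
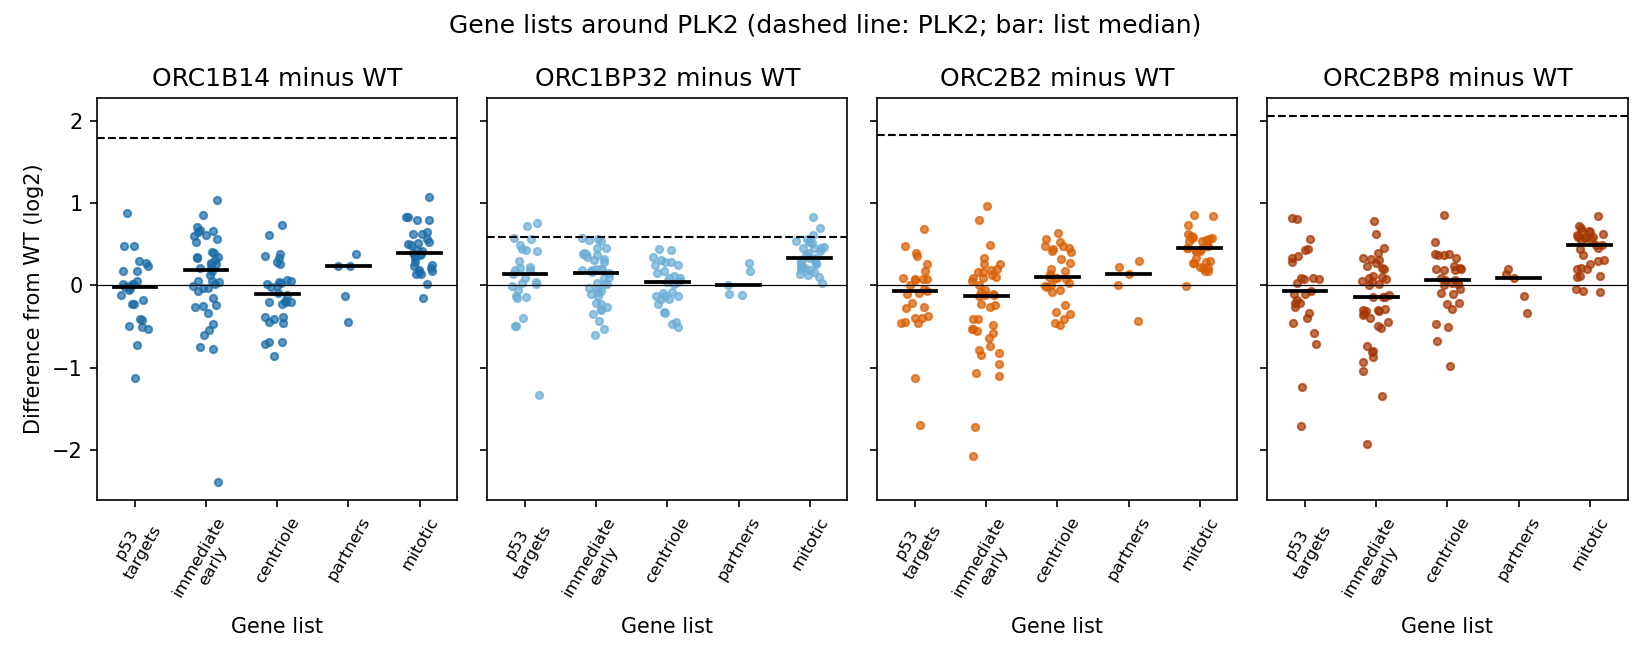
Difference from WT (log2) of each tested gene in the 5 lists, with 1 panel per mutant line, the list median as a bar and PLK2 as a dashed line; positions within a column are spread only for visibility. The list medians lie between -0.14 and 0.49, and the dashed line is drawn for orientation, since PLK2 was selected on these differences.

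The arrays carried most of the named markers of a colorectal epithelial line. Of 7 named epithelial markers of 9, 6 were above the array median on all 10 arrays, among them EPCAM (9.75 to 10.46 on mutant arrays and 10.17 to 10.26 on WT arrays), KRT18 (10.40 to 11.88 and 10.18 to 10.57), KRT8 (5.82 to 6.56 and 6.0 to 6.52) and CDX2 (5.42 to 5.74 and 5.31 to 5.40), and CEACAM5 was below it on all. CDH1 was not named. Both named fibroblast markers of 8, DCN and LUM, were below the array median on all 10 arrays, and their summed level (log2 of the sum on the linear scale) was 3.43 to 3.59 on mutant arrays and 3.47 to 3.53 on WT arrays. Of the 2 named blood markers of 6, CD14 was below it on all arrays, and CD68, which many cell types express in lysosomes, was above it (7.73 to 9.25 on mutant arrays and 7.76 to 8.24 on WT arrays). Liver markers summed to 5.81 to 6.23 on mutant arrays and 5.96 to 5.97 on WT arrays. ALB and AFP were below the array median on all 10 arrays, and APOA1 and TTR were above it on all 10. The neural markers SYP and GFAP summed to 6.04 to 6.63 on mutant arrays and 5.84 to 6.26 on WT arrays. SYP was above the array median on 10 arrays and GFAP on 9. A value above the array median was therefore not particular to the epithelial markers.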

How the data were processed

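The deposited table holds the authors' log2 values for 53617 probe sets on 10 arrays. Affymetrix Expression Console is named in the submitters' processing notes, and the labels' protocols give Trizol extraction and biotinylated cRNA. How the values were normalized, and with which annotation and build, is not given in the sources used here. The log base is stated nowhere and was read from the values (1.45 to 13.71), and fold changes rest on that reading. Array medians were close (3.94 to 3.96 in replicate 1 and 3.87 to 3.89 in replicate 2), so the values were used without further scaling. No 2 arrays were identical (0 pairs).

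Probe sets were named through the platform annotation (16098 with 1 symbol, 0 with several, 37519 unnamed here), and 16098 matched the RefSeq gene table by gene ID. Probe sets at or above the array median on at least 2 arrays were kept (11554), and for the 421 genes with several the highest mean stood for the gene, which left 10797 genes. PLK2 passed on all arrays. limma 3.58.1 in R 4.3.3 was run with lmFit on the 5 line means of all 10 arrays and eBayes with an intensity trend (5 residual and 5.83 prior degrees of freedom), and p-values were two-sided and adjusted by Benjamini-Hochberg over all genes. The steps were tested on simulated data in which arrays varied independently. That simulation held no effect shared by same-numbered arrays, so it does not cover one. The replicates are titled biological but nothing states separate cultures, and p-values then reflect no more than the spread among these 10 arrays, which may be technical. For means over several lines, the SEs and p-values rest on the spread between arrays within lines and leave out the variation between lines. Arrays give no read depth, and their number limits the precision.

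PLK2, the lists and the tests were chosen with earlier results of these data known. Named genes were the polo-like kinases, the 8 genes most like and 4 most opposite to PLK2, 6 neighbours on each side, and in each list the called members and the 3 highest and 3 lowest by mean difference over the mutant lines. CDKN1A, MDM2, CENPJ, NPM1, TP53INP1, DUSP4, LIF, CDC20 and some markers were named outside that rule, after their values or absence were seen. Alternatives were quantile normalization, median centring, other filters, no intensity trend, probe set means, the replicate number as a block and leaving out each array. The replicate number was not used as a block, because the deviations of same-numbered arrays correlated at 0.08 to 0.57 over 10 pairs of lines, below the limit of 0.1 in 1 pair. All 10 correlations were positive, and every other pair lay above the limit. The SEs and calls of the main results come from the fit without the block, which does not remove an effect shared by same-numbered arrays.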

Additional observations from a re-analysis of the deposited data

How the results depend on the processing

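The PLK2 difference from WT kept its sign under quantile normalization, median centring, the replicate block and every left-out array. When each array was left out in turn ORC1B14 ran from 1.61 to 1.98, ORC1BP32 from 0.41 to 0.78, ORC2B2 from 1.49 to 2.17 and ORC2BP8 from 1.59 to 2.53. Counts of called genes moved more. With the replicate block ORC1B14 had 496 called genes, ORC1BP32 had 57, ORC2B2 had 251 and ORC2BP8 had 402, against 63, 2, 36 and 101 without it. The block also called PLK1 for the mean of the 4 lines (0.67, adjusted p = 0.0221) and in ORC1B14 (0.83, adjusted p = 0.0312), 8 of the 12 neighbours of PLK2 in ORC1B14 in place of 2 (DHX29, MTREX, SMIM15, KIF2A, DIMT1 and IPO11 besides GPBP1 and ELOVL7), 2 p53 targets, 7 immediate early genes, 1 centriole gene and 9 mitotic genes, against 0 in each list without it. Median centring gave 32 genes in ORC1B14, 0 in ORC1BP32 and 58 in ORC2BP8, no filter gave 27, 0 and 22 in ORC1B14, ORC1BP32 and ORC2B2, and quantile normalization gave 0 in ORC1BP32. Quantile normalization called 1 immediate early gene (EREG) and 1 mitotic gene (BIRC5), and the stricter filter 1 p53 target (SESN2). Leaving out single arrays gave ORC1B14 1 to 77 genes, ORC1BP32 0 to 5, ORC2B2 7 to 42 and ORC2BP8 14 to 156. In the lists it gave 0 to 2 p53 targets, 0 to 2 immediate early genes, 0 to 1 centriole genes and 0 to 2 mitotic genes, and for PLK1 0.48 to 0.87. Of the 12 genes named for likeness to PLK2, 6 were also named over line means and 7 after replicate centring. The cause of these changes was not tested. With 2 arrays per line, a lone array was assumed to vary like the other lines.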
